A study of Mus musculus with 22 samples.

Results

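The genes described here build, cross-link and break down the extracellular matrix of the liver, or mark the stellate cells and myofibroblasts that make it. They were a list of 40 genes chosen by name: 13 collagen chains, 10 glycoproteins and proteoglycans, 9 remodelling enzymes and their inhibitors, 7 stellate cell and myofibroblast markers, and the ligand Tgfb1. Of the 40, 37 had a spot named for them on the array, and all 37 met the condition for testing, as did 18191 of the 23976 features with a value. The expression of Col3a1, Col4a2 and Col18a1 was not analysed here. The study asked which genes in liver tumours depend on NF-kB. It profiled 4 hepatocellular carcinomas of mice with both Mdr2 alleles knocked out (Mdr2-KO tumours 1, 2, 5 and 7) and 6 carcinomas of Mdr2-KO mice that also carried 2 transgenes, called IkB-SR (tumours 3, 4, 6, 8, 9 and 10). One transgene is the IkB-superrepressor, an inhibitor of NF-kB, behind a promoter regulated by tetracycline, and the other drives the tetracycline transactivator from a hepatocyte-specific C/EBP promoter (TALAP1). All 10 tumours therefore lacked Mdr2, and the repressor was directed to hepatocytes, not to the cells that make most matrix. 1 wild-type liver of the same mixed genetic background stood beside them. Per the series description each tumour came from an individual mouse. The sex is given as unknown, and age and tetracycline treatment were not given in the sources used here.

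In the healthy liver hepatic stellate cells lie quiet in the space between hepatocytes and sinusoids. Injury and the cytokine TGF-beta turn them into contractile myofibroblasts that secrete fibrillar collagen, and cross-linking enzymes of the lysyl oxidase family stiffen the fibres while matrix metalloproteinases and their inhibitors, the TIMPs, set how fast they are removed. Mdr2 carries phospholipid across the hepatocyte membrane into bile, and mice that lack it have injured bile ducts, with fibrosis around the ducts, before tumours appear. The samples were pieces of whole tissue, so fewer cells of a type and less RNA per cell cannot be told apart.

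Each RNA was compared, on a pair of dye-swapped arrays, with a commercial mouse reference pool that, per the labels, includes embryo fibroblasts and myoblasts. All values are log2 ratios of the sample over that pool, so a negative level says that a gene was below its level in the pool, not that it was absent, and levels are compared between samples of a gene and not between genes. Hepatocyte markers lay far above the pool, with list medians from 5.60 to 6.93 in the 11 samples. The sample labelled IkB-SR 8 went against its label: Nfkbia, the gene of the repressor, was at 0.0027 there and at 1.69 to 3.11 in the other 5 IkB-SR tumours. The Y chromosome gene Eif2s3y had levels of 1.63 to 2.46 in 3 IkB-SR tumours (6, 8 and 9) and in the wild-type liver, and of -4.01 to -2.98 in the other 7 tumours. By the spread of the difference between a sample's 2 arrays the samples fell into dye batch 1 (the Mdr2-KO pair 1 and 2 with IkB-SR 3, 4, 9 and 10) and dye batch 2 (the Mdr2-KO pair 5 and 7 with IkB-SR 6 and 8 and the normal liver).

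Between the tumour groups more matrix and stellate cell genes were lower than higher in IkB-SR tumours, but unevenly. Lower values were also the more frequent over all features (56.8%). Sparc, Emilin2, Tgfb1 and Col5a1 lay lower in every IkB-SR tumour than in every Mdr2-KO tumour. The myofibroblast genes Acta2, Tagln and Vim, type I collagen Col1a2 and the inhibitor Timp3 were lower on average with overlapping groups. The stellate cell markers Des, Pdgfra and Pdgfrb differed by at most 0.17, Pdgfrb in a spot that varied little over the 10 tumours (SD 0.06). For Thy1 the 2 spots went opposite ways. Col6a3 and Mmp9 were higher in IkB-SR tumours. In a limma model with 3 group means over the 11 samples, 0 of the 37 genes passed an adjusted p of 0.05 (Benjamini-Hochberg), and 0% of all 18191 features did. The lowest adjusted p among the 37 was 0.0569, for Emilin2. At an unadjusted p under 0.05 there were 13 of the 37 genes (35.1%, against 12.4% of all features): 11 lower (29.7%, against 9.32%) and 2 higher (5.41%, against 3.09%). The difference was below 0 for 25 of the 37 (67.6%, against 56.8% of all features). After quantile normalization it was below 0 for 21. The median over all features was then 0.04, and their share below 0 was not counted under that setting. Without that normalization the median difference of the 37 was -0.23, against -0.02 over all features and -0.20 over 8 control genes such as Actb. Of the 35 genes with a value in every tumour, 4 had all IkB-SR tumours below all Mdr2-KO tumours (11.4%, against 2.22% of features), and 1 had them above (0.859% of features).

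**Figure D1:**
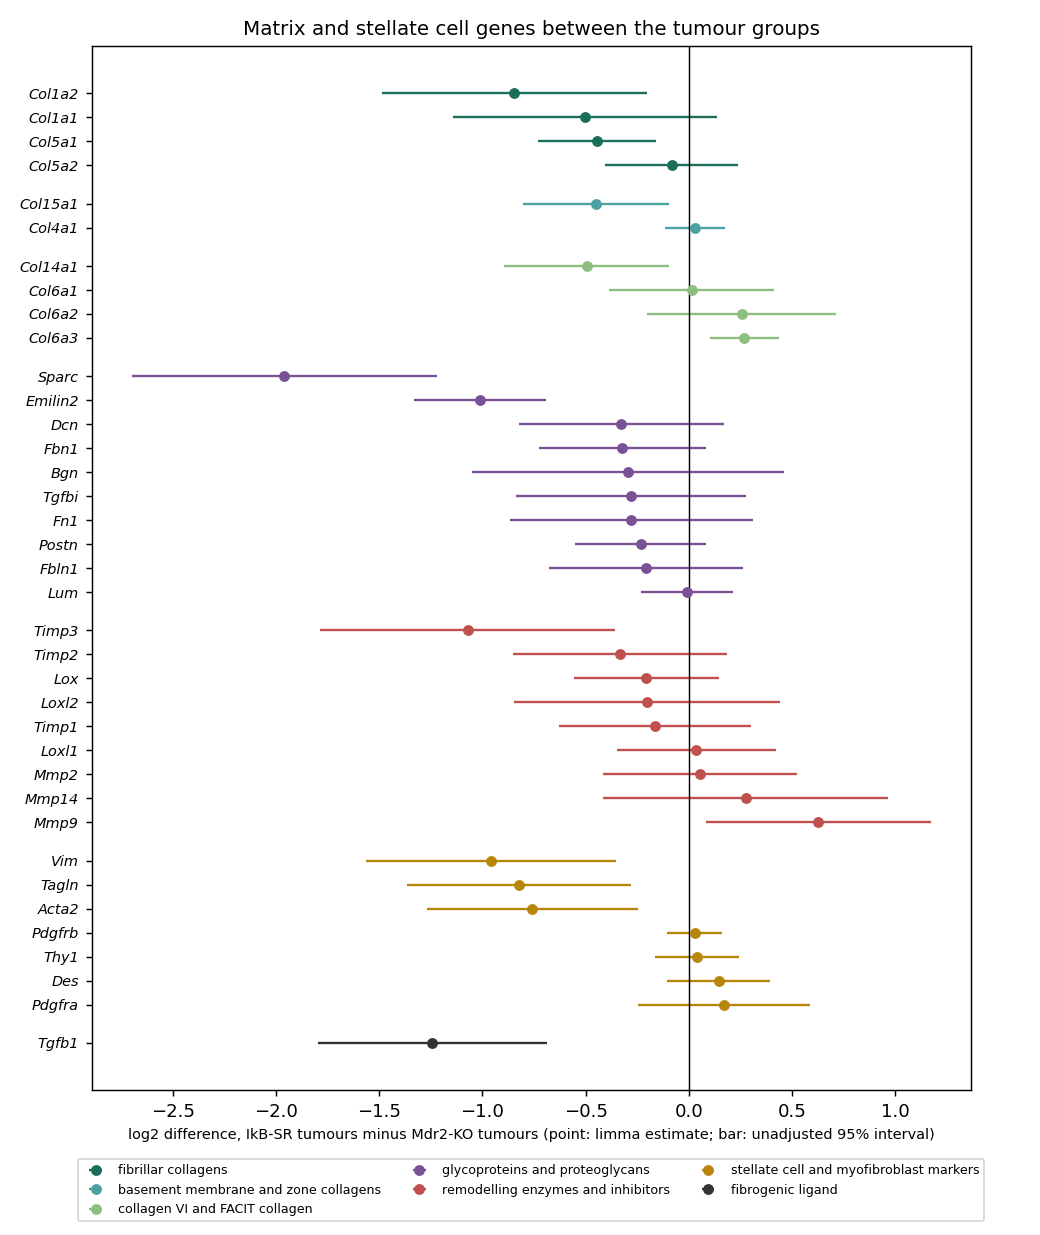
Log2 difference between IkB-SR and Mdr2-KO tumours for the 37 measured genes, grouped by role; points are limma estimates over 6 and 4 tumours and bars unadjusted 95% intervals. Sparc (-1.96), Tgfb1 (-1.24), Timp3 (-1.07) and Emilin2 (-1.01) lie farthest to the left, and Mmp9 (0.63) farthest to the right.

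The upstream sequences of the 4 genes whose IkB-SR tumours all lay lower are shown because the repressor acts on a transcription factor and TGF-beta signals through Smad proteins. They are the 250 bases before the annotated start in the RefSeq promoter table (build GRCm38.p6), read on the gene's own strand. Capitals mark matches on either strand to the NF-kB consensus or to the Smad box CAGACA, which reads TGTCTG on the other strand. The coordinates are chr11:55420081-55420330 (minus strand) for Sparc, chr17:71311557-71311806 (minus strand, the first of 2 listed starts) for Emilin2, chr7:25686752-25687001 (plus strand) for Tgfb1 and chr2:27886175-27886424 (plus strand) for Col5a1.
Sparc: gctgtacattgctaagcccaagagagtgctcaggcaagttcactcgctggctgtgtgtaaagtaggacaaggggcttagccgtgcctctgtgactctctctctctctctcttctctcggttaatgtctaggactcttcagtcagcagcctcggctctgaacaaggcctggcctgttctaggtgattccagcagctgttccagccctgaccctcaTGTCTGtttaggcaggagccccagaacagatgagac
Emilin2: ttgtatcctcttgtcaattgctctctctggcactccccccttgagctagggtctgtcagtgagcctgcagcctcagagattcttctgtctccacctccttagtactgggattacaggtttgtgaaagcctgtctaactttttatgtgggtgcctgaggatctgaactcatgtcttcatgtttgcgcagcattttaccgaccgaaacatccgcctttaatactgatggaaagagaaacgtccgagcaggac
Tgfb1: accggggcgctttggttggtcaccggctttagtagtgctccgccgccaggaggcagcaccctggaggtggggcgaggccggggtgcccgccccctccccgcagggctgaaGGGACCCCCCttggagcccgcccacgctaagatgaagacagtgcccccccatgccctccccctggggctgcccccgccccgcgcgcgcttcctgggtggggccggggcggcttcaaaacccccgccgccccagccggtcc
Col5a1: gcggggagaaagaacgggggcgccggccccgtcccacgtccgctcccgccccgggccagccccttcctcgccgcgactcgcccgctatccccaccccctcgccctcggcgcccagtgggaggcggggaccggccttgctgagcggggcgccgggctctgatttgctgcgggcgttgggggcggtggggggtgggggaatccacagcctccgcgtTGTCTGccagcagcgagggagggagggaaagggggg
The Smad box matches of Sparc and Col5a1 begin 36 bases before the start, and the NF-kB match of Tgfb1 begins 140 bases before it. No match to either motif was found in the window shown for Emilin2. Of the 40 genes, 26 had a promoter in the table, 31 promoters in all, and a gene was counted if any of its promoters held the motif. Col3a1, Col4a2 and Col18a1 are among them although they have no expression value here. Col4a2, Col6a2, Des, Fbln1, Tgfb1 and Vim held the NF-kB consensus (6 genes), against 7.25% of all 32851 promoters, each counted singly, over the same length. Acta2, Col18a1, Col1a2, Col3a1, Col5a1, Fbln1 and Sparc held the Smad box (7 genes), against 17.1% of all promoters. The gene counts and the promoter shares are unlike measures, and an excess of either motif was not tested. A match describes letters in the window and is no measured binding.

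Tgfb1 encodes the main fibrogenic cytokine of the liver. Its level was -0.75, -1.81, -1.60 and -1.03 in Mdr2-KO tumours 1, 2, 5 and 7 and ran from -3.02 through a median of -2.60 to -1.92 in the IkB-SR tumours, beside -2.78 in the wild-type liver. The 2 tumour groups did not overlap, although IkB-SR tumour 4 (-1.92) lay 0.11 below Mdr2-KO tumour 2, and the wild-type liver lay inside the IkB-SR range. The difference was -1.24 ± 0.25 (SE), 2.37-fold lower (limma adjusted p = 0.102). It was -1.23 within dye batch 1 and -1.29 within dye batch 2, -1.21 without the sample labelled IkB-SR 8, and -1.13 with Eif2s3y as a covariate.

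Of the fibrillar collagens, which form the tensile fibres of scar tissue, 4 of 5 chains were measured and all 4 differences were below 0, 2 of them at an unadjusted p under 0.05. Over all features 56.8% were below 0 and 9.32% were lower at that p. Within dye batch 1, and with Eif2s3y as a covariate, 3 of the 4 were below 0. Col1a1 and Col1a2 encode the chains of type I collagen. Col1a1 was at -3.87, -4.63, -4.48 and -4.45 in the Mdr2-KO tumours and ran from -5.40 through a median of -4.97 to -3.81 in the IkB-SR tumours, with -5.52 in the wild-type liver. IkB-SR tumour 4 held the highest of the 10 values, while the other 5 IkB-SR tumours lay below all Mdr2-KO tumours, and the difference of -0.50 ± 0.29 (SE) did not pass (limma adjusted p = 0.545). Col1a2 was at -3.33, -3.83, -4.13 and -3.69 in the Mdr2-KO tumours and ran from -5.34 through a median of -4.53 to -4.02 in the IkB-SR tumours, with -4.50 in the wild-type liver. IkB-SR tumours 4 and 8 overlapped with Mdr2-KO tumour 5, IkB-SR tumours 3 and 9 were the lowest, and the difference was -0.84 ± 0.29 (SE, limma adjusted p = 0.270). That difference was -1.23 within dye batch 1 and -0.23 within dye batch 2.

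Col5a1 and Col5a2 encode chains of type V collagen, which starts and limits the growth of type I fibrils. Col5a1 was close together in the Mdr2-KO tumours, at -2.98, -2.93, -2.87 and -2.80, and ran from -3.64 through a median of -3.32 to -3.05 in the IkB-SR tumours, beside -2.93 in the wild-type liver. All 6 IkB-SR tumours lay below the 4 Mdr2-KO tumours and below the wild-type liver, with a gap of 0.07 between the nearest tumours of the 2 groups and a difference of -0.44 ± 0.13 (SE, limma adjusted p = 0.200). The 2 arrays of a sample differed for Col5a1 by 0.53 on average, more than that gap and the size of that difference. Col5a2 differed by -0.08 ± 0.14 (SE, interval -0.40 to 0.24), and its 2 spots gave -0.24 and 0.08. It was above 0 within dye batch 1 (0.03), with Eif2s3y as a covariate (0.03) and after quantile normalization (0.06).

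**Figure D2:**
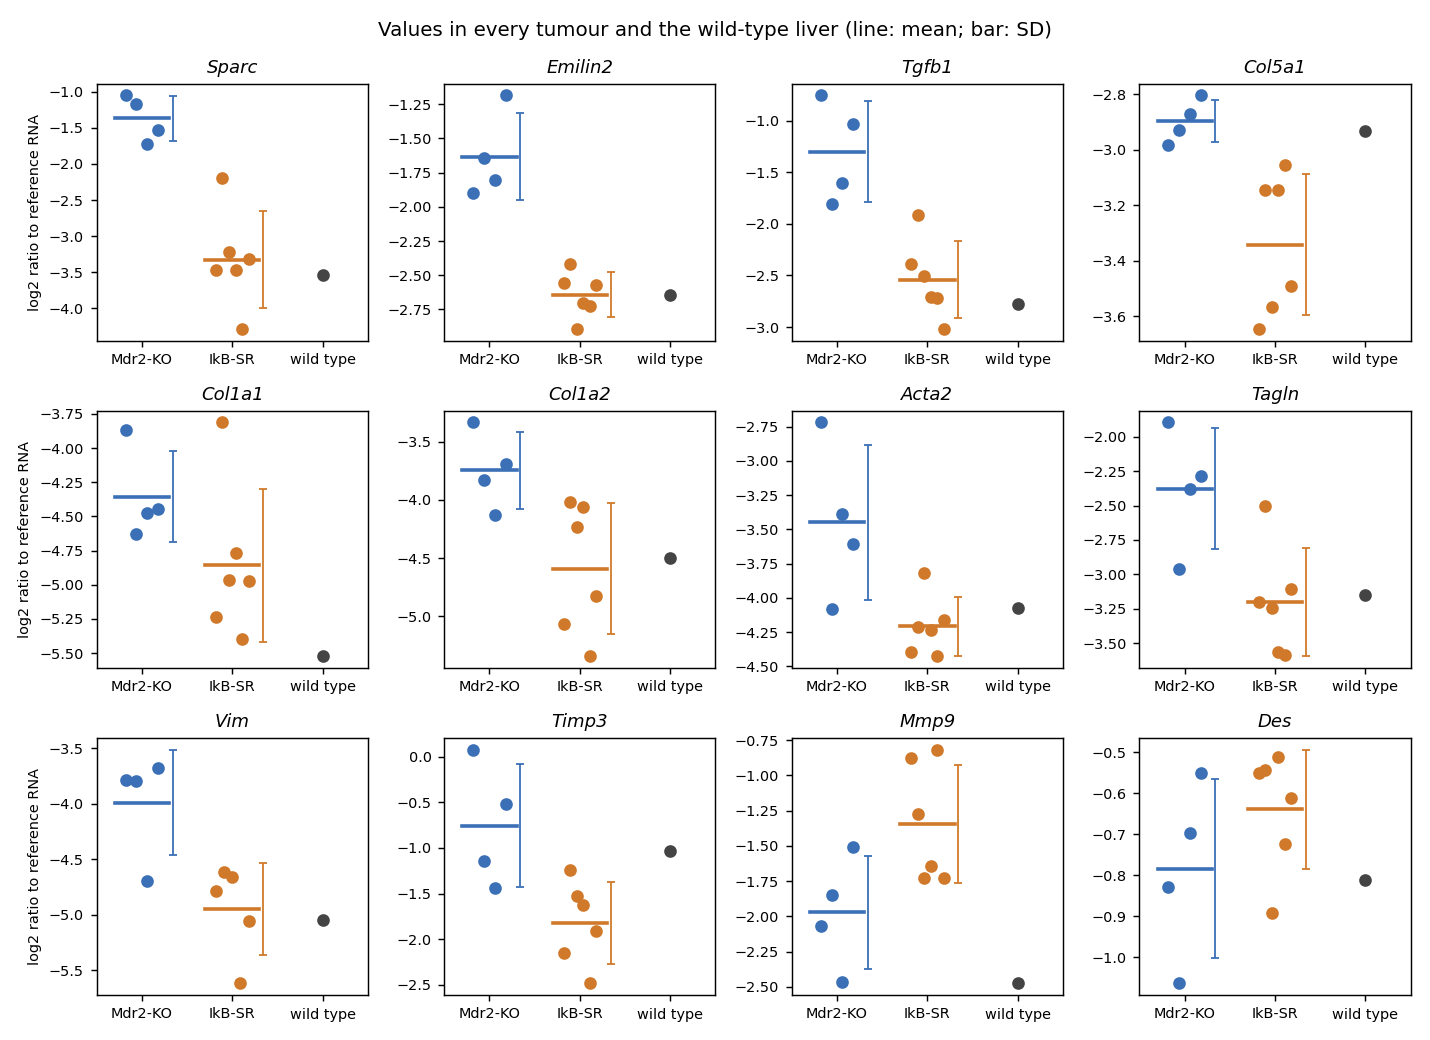
Log2 ratio to the reference RNA of 12 genes in each Mdr2-KO tumour (4), IkB-SR tumour (6) and the wild-type liver (1); lines are group means and bars SDs. Sparc, Emilin2, Tgfb1 and Col5a1 show separate tumour groups, and the other 8 genes show groups that overlap or, for Vim, touch only through Mdr2-KO tumour 5.

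Of the collagens of the basement membrane and its zone, Col4a1, a chain of the type IV network under endothelium, differed by 0.03 ± 0.07 (SE, interval -0.12 to 0.17). Col15a1, which ties basement membranes to the fibrils around them, was at 2.72, 2.41, 2.76 and 2.59 in the Mdr2-KO tumours and ran from 1.65 through a median of 2.27 to 2.43 in the IkB-SR tumours. IkB-SR tumours 4 and 8 reached the lowest Mdr2-KO tumour and the other 4 lay below it, with a difference of -0.45 ± 0.16 (SE, limma adjusted p = 0.287). Both of its spots were lower in IkB-SR tumours (-0.43 and -0.47).

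Type VI collagen forms beaded filaments around cells. Col6a1 and Col6a2 differed by 0.01 and 0.26 (intervals -0.38 to 0.41 and -0.20 to 0.72), and IkB-SR tumour 4 held the highest value of both. Col6a3 was at -0.60, -0.55, -0.38 and -0.37 in the Mdr2-KO tumours and ran from -0.35 through a median of -0.19 to -0.09 in the IkB-SR tumours, with -0.34 in the wild-type liver. Here all IkB-SR tumours lay above all Mdr2-KO tumours, by a mean of 0.27 ± 0.07 (SE, limma adjusted p = 0.184), although the nearest tumours of the 2 groups were 0.02 apart. Col14a1, a fibril-associated collagen, was at 3.28, 2.56, 2.49 and 2.76 in the Mdr2-KO tumours and ran from 1.85 through a median of 2.31 to 2.58 in the IkB-SR tumours. IkB-SR tumour 4 overlapped with Mdr2-KO tumours 2 and 5, Mdr2-KO tumour 1 was the highest, and the difference was -0.49 ± 0.18 (SE, limma adjusted p = 0.299). Its 2 spots gave -0.70 and -0.29.

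All 10 glycoproteins and proteoglycans had a difference below 0 (56.8% of all features did). At an unadjusted p under 0.05, 2 of them were lower (9.32% of all features). Within dye batch 1 all 10 were below 0, but within dye batch 2 only 7. Fn1 (0.16), Tgfbi (0.09) and Lum (0.04) lay above 0 there, and Lum was at 0.11 after quantile normalization. Sparc, a secreted protein that binds collagen and is made by activated stellate cells and endothelium, had the lowest difference of the 37 genes. It was at -1.05, -1.16, -1.72 and -1.53 in the Mdr2-KO tumours and at -3.47, -2.19, -3.23, -3.47, -4.29 and -3.32 in IkB-SR tumours 3, 4, 6, 8, 9 and 10, beside -3.55 in the wild-type liver. The groups were 0.47 apart at their nearest tumours, IkB-SR tumour 4 was the highest of its group and tumour 9 the lowest, and the wild-type liver lay inside the IkB-SR range. The difference was -1.96 ± 0.33 (SE), 3.89-fold lower (limma adjusted p = 0.0847), and it passed without IkB-SR tumour 4 (-2.19, limma adjusted p = 0.0438) and with array weights (-2.01, limma adjusted p = 0.0350). Over all alternatives its limma adjusted p ran from 0.03 to 0.28. It was -2.21 within dye batch 1, -1.72 within dye batch 2, -1.93 without the sample labelled IkB-SR 8 and -1.54 with Eif2s3y as a covariate.

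Emilin2, a glycoprotein found along elastic fibres, was at -1.90, -1.64, -1.80 and -1.18 in the Mdr2-KO tumours and ran from -2.89 through a median of -2.64 to -2.42 in the IkB-SR tumours, with -2.65 in the wild-type liver. The IkB-SR tumours were closely grouped (SD 0.17, n = 6) around the wild-type value, and the highest of them lay 0.52 below the lowest Mdr2-KO tumour. The difference was -1.01 ± 0.14 (SE), 2.02-fold lower, with -0.80 and -1.30 within dye batches 1 and 2. Its limma adjusted p of 0.0569 passed the threshold after quantile normalization (0.0376), after centring each array (0.0486) and with array weights (0.0211), and over all alternatives it ran from 0.02 to 0.38.

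The other 8 genes of this group differed by -0.33 to -0.01, with intervals that all included 0. Dcn, Lum and Bgn are small proteoglycans that space collagen fibrils and had differences of -0.33, -0.01 and -0.29. Lum was the steadiest of them over the 10 tumours (SD 0.14) and Bgn the most variable (SD 0.57, from -3.38 in IkB-SR tumour 9 to -1.45 in IkB-SR tumour 4). Fn1, the adhesive glycoprotein that hepatocytes also secrete into plasma, differed by -0.28 ± 0.26 (SE), and Fbn1, the backbone of elastic microfibrils, by -0.32 ± 0.18 (SE). Tgfbi and Postn, matrix proteins known as TGF-beta targets, differed by -0.28 and -0.23, and Fbln1, an elastic fibre and basement membrane protein, by -0.21.

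The remodelling genes had no common direction, with 5 of 9 differences below 0. Mmp9, a gelatinase made largely by inflammatory cells, was at -2.07, -1.85, -2.46 and -1.51 in the Mdr2-KO tumours and ran from -1.73 through a median of -1.46 to -0.82 in the IkB-SR tumours, and it was at -2.47 in the wild-type liver. IkB-SR tumours 3, 4 and 9 lay above all Mdr2-KO tumours and the other 3 lay among them, with a difference of 0.63 ± 0.24 (SE, limma adjusted p = 0.335). The difference was 0.79 within dye batch 1 and 0.30 within dye batch 2. Mmp2, the gelatinase of stellate cells and fibroblasts, was at -3.15, -2.51, -2.41 and -2.55 in the Mdr2-KO tumours and ran from -3.01 through a median of -2.72 to -2.10 in the IkB-SR tumours. The groups overlapped throughout, and the difference of 0.05 (interval -0.42 to 0.52) changed sign when Mdr2-KO tumour 1 or IkB-SR tumour 4 or 8 was left out. Mmp14, the membrane-bound activator of Mmp2, differed by 0.28 ± 0.31 (SE).

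Timp3, an inhibitor that stays bound to the matrix, was at 0.08, -1.14, -1.44 and -0.52 in the Mdr2-KO tumours and ran from -2.48 through a median of -1.77 to -1.24 in the IkB-SR tumours, with -1.03 in the wild-type liver. Mdr2-KO tumour 1 was the highest, IkB-SR tumour 4 alone overlapped with the Mdr2-KO tumours, and all 6 IkB-SR tumours lay below the wild-type liver. The difference was -1.07 ± 0.32 (SE), 2.10-fold lower (limma adjusted p = 0.216), and it was -1.42 within dye batch 1 and -0.60 within dye batch 2. Timp1, the soluble inhibitor that activated stellate cells secrete, was at -4.48, -3.76, -4.65 and -4.05 in the Mdr2-KO tumours and ran from -4.71 through a median of -4.38 to -3.86 in the IkB-SR tumours. The groups overlapped and the difference was -0.16 ± 0.21 (SE). Timp2 differed by -0.33, and the collagen cross-linking enzymes Lox, Loxl1 and Loxl2 by -0.21, 0.04 and -0.20, each with an interval that included 0. Loxl2 had no value in IkB-SR tumours 4 and 9, so its mean rests on the other 4.

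Of the 7 stellate cell and myofibroblast markers, Acta2 and Tagln, contractile proteins of myofibroblasts and smooth muscle, and Vim, the intermediate filament of mesenchymal cells, were lower at an unadjusted p under 0.05, while Des, Pdgfra and Pdgfrb, which mark stellate cells and fibroblasts more broadly, had differences from 0.03 to 0.17. Acta2 was at -2.72, -4.08, -3.39 and -3.61 in the Mdr2-KO tumours and ran from -4.42 through a median of -4.23 to -3.82 in the IkB-SR tumours. Mdr2-KO tumour 1 was the highest, Mdr2-KO tumour 2 lay among the IkB-SR tumours, and the difference of -0.76 ± 0.23 (SE, limma adjusted p = 0.221) was -0.52 without Mdr2-KO tumour 1. Tagln was at -1.90, -2.96, -2.38 and -2.28 in the Mdr2-KO tumours and ran from -3.58 through a median of -3.22 to -2.50 in the IkB-SR tumours. Mdr2-KO tumour 2 was again the lowest of its group and IkB-SR tumour 4 the highest of its own, the only ones to overlap, and the difference was -0.82 ± 0.24 (SE, limma adjusted p = 0.210). The 5 Tagln spots gave -0.77 to -0.87, and the difference with Eif2s3y as a covariate was -0.51.

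Vim was at -3.79, -3.79, -4.70 and -3.68 in the Mdr2-KO tumours and ran from -5.62 through a median of -4.79 to -4.61 in the 5 IkB-SR tumours with a value, since IkB-SR tumour 6 had none. Mdr2-KO tumour 5 alone lay among the IkB-SR tumours, and the difference was -0.96 ± 0.27 (SE), 1.94-fold lower (limma adjusted p = 0.197). Des, the intermediate filament of stellate and muscle cells, was at -0.83, -1.06, -0.70 and -0.55 in the Mdr2-KO tumours and ran from -0.89 through a median of -0.58 to -0.51 in the IkB-SR tumours. The groups overlapped and the difference was 0.15 (interval -0.10 to 0.40). The PDGF receptors Pdgfra and Pdgfrb differed by 0.17 (interval -0.24 to 0.59) and 0.03 (interval -0.11 to 0.16). Pdgfrb stayed between -0.12 and 0.11 in all samples, while the 2 arrays of a sample differed for it by 0.36 on average. Whether that spot follows the transcript was not tested. The 2 spots of Thy1, a surface protein of portal fibroblasts and T cells, went opposite ways (-0.23 and 0.31), so its mean of 0.04 describes neither.

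Within both dye batches the medians of the genes were below 0, at -0.32 over 37 genes in batch 1 and -0.15 over 36 in batch 2. The medians over all features were -0.04 and -0.0019. Differences below 0 numbered 27 and 25, and the share of all features below 0 was not counted by batch. Each batch comparison rests on few tumours (2 Mdr2-KO tumours in each, with 4 IkB-SR tumours in batch 1 and 2 in batch 2). Of the genes at an unadjusted p under 0.05, those not yet given by batch lay at -0.38 and -0.52 (Col5a1), -0.49 and -0.31 (Col15a1), 0.40 and 0.11 (Col6a3), and -0.66 and -0.31 (Col14a1). Acta2 lay at -0.90 and -0.53, and Tagln at -0.67 and -1.08. All kept their sign in both batches. They had been picked over the same tumours that the 2 batches divide, so the shared signs are no independent support. Vim was -1.23 in batch 1 and was not tested in batch 2. Without the sample labelled IkB-SR 8 the median over the 37 genes was -0.27, and with Eif2s3y as a covariate it was -0.20. After quantile normalization between arrays it was -0.13, while the median over all features also rose, to 0.04. The single values shifted upward, to -0.20 for Col1a1, -0.29 for Col15a1 and -0.62 for Vim, and to 0.78 for Mmp9, 0.32 for Col6a3 and 0.42 for Col6a2.

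**Figure D3:**
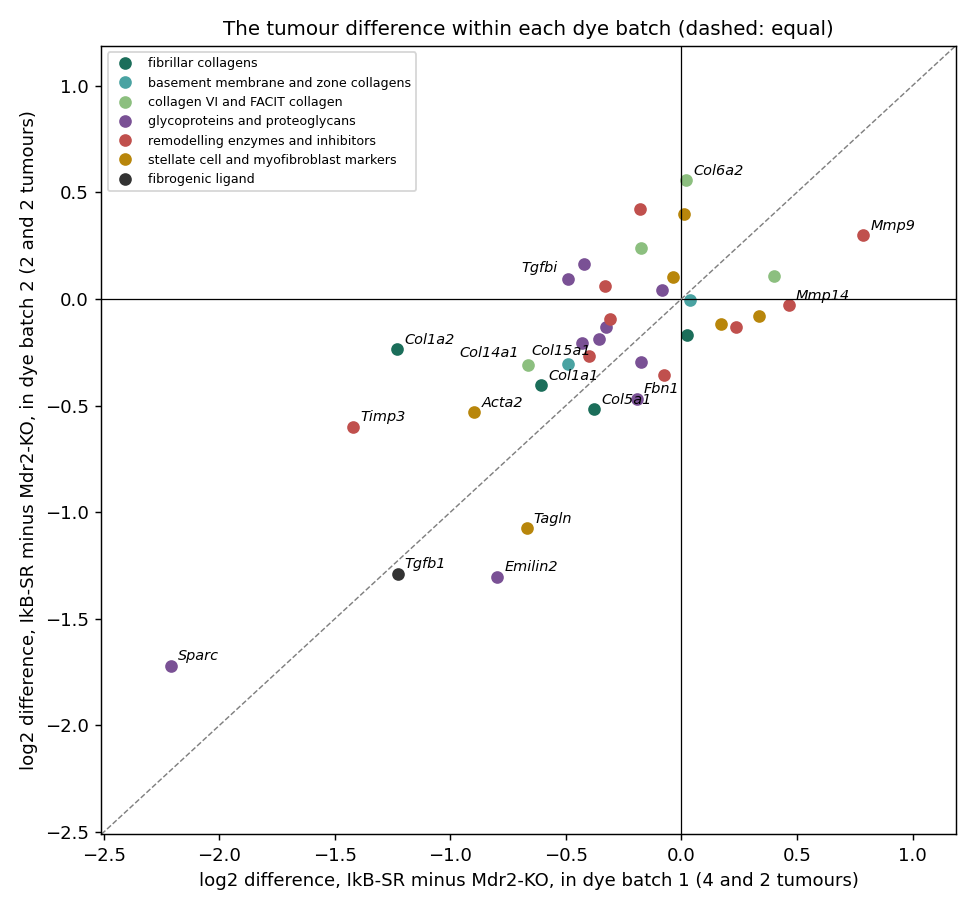
Log2 difference between IkB-SR and Mdr2-KO tumours within dye batch 1 (horizontal axis, 4 and 2 tumours) against dye batch 2 (vertical axis, 2 and 2 tumours), 1 point per gene. Sparc, Tgfb1 and Emilin2 lie at -0.80 or lower on both axes, while Col1a2 (-1.23 and -0.23) and Timp3 (-1.42 and -0.60) lie well above the dashed line of equal differences.

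Over the 35 genes with a value in every tumour, the SD over the 10 tumours, which includes the difference between the groups, had a median of 0.351 (from 0.0644 for Pdgfrb to 1.14 for Sparc), against 0.243 over all features. Within the groups the SD of Sparc was 0.32 over the 4 Mdr2-KO and 0.67 over the 6 IkB-SR tumours. IkB-SR tumour 4 held the highest of the 10 values for 10 genes and the highest of its group for 22, among them Col1a1, Col1a2, Sparc, Tgfb1, Tagln and Timp3. IkB-SR tumour 9 held the lowest of the 10 values for 14 genes, among them Col1a1, Col1a2, Sparc, Acta2, Timp3 and Bgn. Both tumours belong to dye batch 1. Mdr2-KO tumour 1 held the highest of the 10 values for 9 genes, among them Tgfb1, Sparc, Acta2, Tagln, Timp3 and Col14a1. It held the lowest for 5. For the 10 collagen chains, 4 were highest in IkB-SR tumour 4 and 5 were lowest in IkB-SR tumour 9. These ranks were not counted over all features, so whether they are particular to these genes was not tested.

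Against the single wild-type liver 0 of the 37 genes passed in either comparison, beside 0.247% of 17420 features for Mdr2-KO tumours and 0.149% for IkB-SR tumours. At an unadjusted p under 0.05, 9 genes were higher in Mdr2-KO tumours (8.47% of all features were) and 2 in IkB-SR tumours (6.08%), and 0 were lower in either (2% and 3.14%). After quantile normalization 4 were higher and 2 lower in Mdr2-KO tumours, and 2 were higher and 2 lower in IkB-SR tumours. With Eif2s3y as a covariate 1 was higher in each. Of all 17420 features, 1349 and 1246 were at that p in either direction after quantile normalization. With Eif2s3y they were 2110 and 1859 of 17419. Their shares by direction were not counted under these settings. All 4 Mdr2-KO tumours had low Eif2s3y and the liver had it high, and its part in these differences was not tested further. Both comparisons share that liver, and its own spread was taken to equal that of the tumours. The median difference of the 37 genes was 0.38 in Mdr2-KO and 0.13 in IkB-SR tumours (0.02 and -0.02 over all features). After quantile normalization it was 0.09 and, with its sign turned, -0.05. The medians over all features were also lower then, at -0.06 and -0.02 (-0.0620 and -0.0243). The 8 control genes had medians of 0.35 and 0.11 before that normalization. Of 35 genes with a value in all samples, 7 were above the wild-type liver in all 10 tumours (20.0%, against 14.2% of features): Col1a1, Fbn1, Lum, Mmp9, Mmp14, Timp1 and Thy1. Dcn was below it in all 10 (9.29% of features were).

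In Mdr2-KO tumours the 9 genes were Sparc (2.18 ± 0.58, SE), Tgfb1 (1.48 ± 0.43), Col1a1 (1.17 ± 0.50), Vim (1.05 ± 0.45), Loxl2 (1.04 ± 0.44), Emilin2 (1.01 ± 0.25), Fbn1 (0.95 ± 0.31), Col15a1 (0.73 ± 0.27) and Thy1 (0.38 ± 0.16, and -0.07 after quantile normalization). The lowest adjusted p of them in limma was 0.156, for Emilin2. After quantile normalization Fbn1 was at 0.41, Vim at 0.55, Emilin2 at 0.58 and Col1a1 at 0.78. With Eif2s3y as a covariate Sparc was at 1.41, Col1a1 at 0.75 and Vim at 0.62. Without these changes of setting, the differences in IkB-SR tumours were 0.22 for Sparc, 0.24 for Tgfb1, 0.66 for Col1a1, 0.10 for Vim, 0.84 for Loxl2, 0.0032 for Emilin2, 0.62 for Fbn1, 0.28 for Col15a1 and 0.42 for Thy1. For Sparc and Emilin2 the intervals in IkB-SR tumours were -1.02 to 1.46 and -0.53 to 0.54, so a difference of moderate size could not be seen against 1 liver. The 2 genes of the IkB-SR comparison were Mmp9 (1.13 ± 0.41, SE, limma adjusted p = 0.393) and Thy1. The 2 Col15a1 spots disagreed against this liver: one was at 1.98 in Mdr2-KO tumours and 0.65 in the liver, the other at 3.25 and 3.12.

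**Figure D4:**
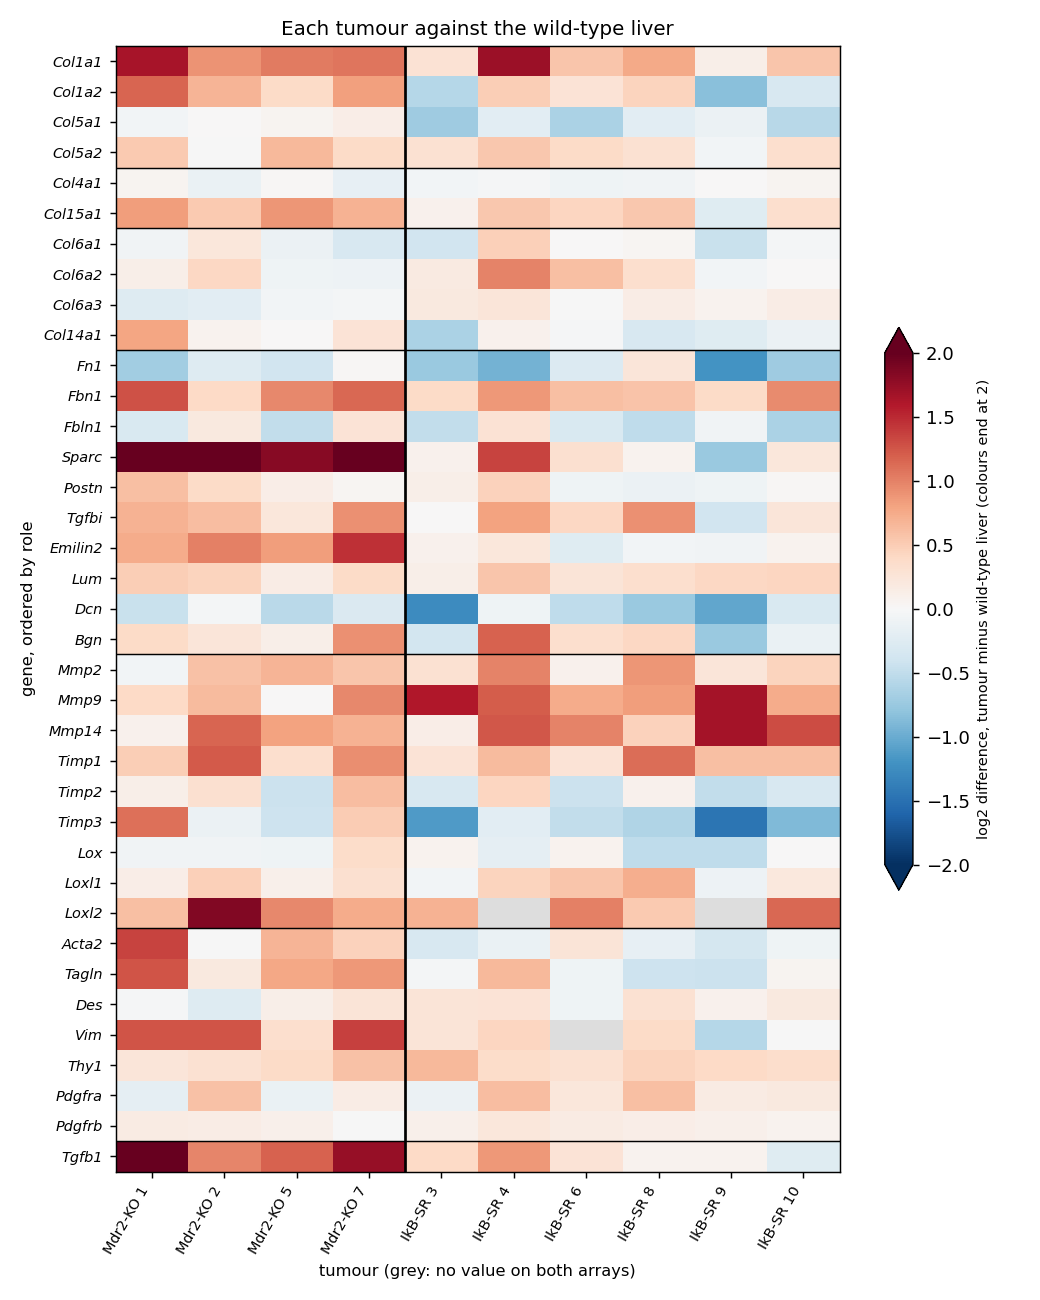
Log2 difference of each of the 10 tumours (columns) from the single wild-type liver for the 37 genes (rows, ordered by role); red is higher in the tumour, blue lower, grey no value, and colours end at 2. Sparc, Tgfb1 and Emilin2 are red in the 4 Mdr2-KO tumours and pale in most IkB-SR tumours, Mmp9, Fbn1 and Lum are red or pale red across both groups, and Dcn is blue or pale in all.

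Genes around the list were counted the same way, and 0 of each passed an adjusted p of 0.05 between the tumour groups. Over all features 56.8% were below 0, and at an unadjusted p under 0.05 9.32% were lower and 3.09% higher. Of 17 measured genes of TGF-beta and PDGF signalling, 15 were below 0 (16 of 18 within dye batch 1, 9 of 17 within dye batch 2). At an unadjusted p under 0.05, 3 were lower: the inhibitory Smad7 (-0.79), the latent TGF-beta binding protein Ltbp4 (-1.09) and Tgfb3 (-0.46). Of 13 genes of collagen synthesis, 8 were below 0 and 1 was lower, the collagen chaperone Serpinh1 (-0.61). Within dye batches 1 and 2, 9 and 4 of the 13 were below 0. Of 11 laminin and basement membrane genes, 6 were below 0 and 4 were lower, with Lamc1 at -0.64 ± 0.10 (SE, limma adjusted p = 0.0580), Lama4, a laminin chain of vessels, at -1.30, and Hspg2, the basement membrane proteoglycan perlecan, at -0.93. Of 8 quiescent stellate cell genes 7 were below 0 (median -0.24) and 1 was lower (Hand2, -0.61). Their counts below 0 were 7 of 8 within dye batch 1 and 5 of 9 within dye batch 2. Of 17 other proteases and inhibitors 1 was lower (Adam10, -0.61) and 2 higher (Mmp3, 0.56, and Adam8, 0.68).

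Markers of other cell types also differed in level between the tumour groups. The sample medians given for endothelial, macrophage and hepatocyte markers are over the 9, 8 and 9 of them with a value in every sample. Of 11 endothelial markers all were below 0 and 9 were lower at an unadjusted p under 0.05 (list median -1.14), among them Lyve1 (-2.02), Emcn (-1.14) and Flt1 (-0.63). The endothelial median of a sample was 0.95 to 2.09 in Mdr2-KO tumours, 0.43 to 1.06 in IkB-SR tumours and 1.11 in the wild-type liver. Of 9 macrophage markers all were below 0 and 6 were lower (list median -1.09), with sample medians of 2.06 to 2.61, 1.22 to 1.83 and 0.97. Of 3 measured neutrophil markers 2 were lower, S100a8 (-2.09) and Csf3r (-1.02), and S100a8 itself was at 1.24 to 2.84 in Mdr2-KO and -1.15 to 0.73 in IkB-SR tumours. Of 11 hepatocyte markers 8 were higher, among them Alb (1.17), with sample medians of 5.60 to 6.03 and 5.99 to 6.93. Of 6 cholangiocyte markers 1 was lower (Spp1, -1.25) and of 6 mesothelial markers 0 in either direction. Of 8 control genes 6 were below 0 (list median -0.20) and 2 were lower, the cytoskeletal actin Actb (-0.96) and Tbp (-0.17). That list median lay near the -0.23 of the 37 matrix and stellate cell genes. The part of these cell types in the differences of the matrix genes was not tested.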

How the data were processed

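The authors deposited 1 value per spot and array for 37632 spots on 22 two-colour arrays of 11 RNA samples, amplified with a T7 primer per the labels' protocols. The deposited values were read as normalized log2 ratios of sample over reference. The base is not stated, and 2 was assumed from the highest value (8.35). Spot reading, filtering and normalization were not given in the sources used here. Dye-swapped arrays correlated at 0.861 to 0.988, so orientations were already aligned, and high hepatocyte genes make sample over reference the likely direction. Between 19576 and 25000 spots per array had a value. No spot intensities were used, so how near a low ratio lay to background could not be judged. The number of samples limits the precision. The extraction protocol speaks of mouse skin, and the wild-type liver carries a carcinoma tag. Both were disregarded.

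Platform annotation gave 1 symbol for 20879 spots and none for 16753; 15688 symbols were current in RefSeq's GRCm38.p6 table, 5005 were updated and 186 kept. Both arrays of a sample were averaged. Spots of a symbol were combined as the mean of their deviations from each spot's own mean plus the mean of those spot means, so that a missing spot does not shift a level. Features with both arrays valued in 3 or more Mdr2-KO and 4 or more IkB-SR tumours were fitted with limma 3.58.1 (R 4.3.3; lmFit, eBayes), with 3 group means over 11 samples and Benjamini-Hochberg adjustment over all features at 0.05. The fit was tested on simulated data. Tables and plots used Python 3.11.15. Dye batches were split at an SD of 0.5 of the difference between a sample's arrays, a limit set after seeing the values. Values per sample were printed for genes at an unadjusted p under 0.05 between the tumour groups and for Col1a1, Des, Timp1 and Mmp2 beside them, and other lists by their 3 smallest p. Single tumours and genes named for their rank were chosen after their values were seen. The genes, lists and tests were chosen with earlier results of these data known.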

Additional observations from a re-analysis of the deposited data

Results flagged for a closer look

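Of 74 gene and group combinations examined for a single sample far from the others of its group, 2 stood out by Dixon's criterion at its 95% level, which chance gives for about 1 in 20 groups. Lox was at -4.33 in Mdr2-KO tumour 7 and at -4.79 to -4.77 in the other 3 Mdr2-KO tumours. Vim was at -4.70 in Mdr2-KO tumour 5 and at -3.79 to -3.68 in the other 3. That Vim value alone brought the tumour groups into overlap.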

How the results depend on the processing

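No paired analysis was made, because per the series description each tumour came from an individual mouse and the labels name no pairs. For the 17 genes followed between the tumour groups, 375 of 389 alternative values kept their sign and their side of the threshold, as did 194 of 195 when Mdr2-KO tumours were set against wild-type liver (9 genes) and all 44 for IkB-SR tumours (2 genes). Values on the other side of the threshold were those of Emilin2 and Sparc: Emilin2 at -0.87 after quantile normalization, -1.02 with centred arrays and -0.96 with array weights, and Sparc at -2.01 with array weights and -2.19 without IkB-SR tumour 4. The count of the 37 genes that passed between the tumour groups was thus 1, 1 and 2 under the first 3 of these settings, and 0 to 1 when a tumour was left out. Their median difference was -0.32 to -0.16 when a tumour was left out. Sign changes were seen for Mmp2 (-0.0422 with array weights, -0.134 in dye batch 2, -0.11 to 0.13 when a tumour was left out), Timp1 (0.0906 after quantile normalization, 0.000795 on Cy5 arrays, 0.0594 in dye batch 2), Des (-0.0788 in dye batch 2) and Thy1 against wild-type liver (-0.0723 after quantile normalization). The median of the 37 genes in IkB-SR tumours against wild-type liver was -0.0537 after quantile normalization, beside -0.0243 over all features. The cause was not tested.

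Over all features the tumour comparison gave 17 calls after quantile normalization, 14 with centred arrays, 8 for features valued on all 22 arrays, 5 with a plain average of spots (chosen after seeing the data), 2 on Cy3 and 1 on Cy5 arrays, 55 with array weights, 9 with dye batch as a block, and 0 to 34 when a tumour was left out (34 without Mdr2-KO 2, 12 without IkB-SR 4, 11 without IkB-SR 8, 4 without Mdr2-KO 7). Mdr2-KO tumours against wild-type liver gave 28 after quantile normalization, 66 without a filter, 12 on Cy3 and 21 on Cy5 arrays, 108 with array weights, 0 in dye batch 2, 5 with Eif2s3y as a covariate, and 16 to 44 when a tumour was left out (17 without Mdr2-KO 1, 23 without Mdr2-KO 2, 16 without Mdr2-KO 5, 20 without IkB-SR 10). IkB-SR tumours gave 12 on Cy3 arrays, 40 with dye batch as a block, 0 in dye batch 2, and 19 to 33 when a tumour was left out. Calls against wild-type liver were 32 higher and 11 lower in Mdr2-KO tumours (13 and 15 after quantile normalization, 20 and 12 with centred arrays) and 17 higher and 9 lower in IkB-SR tumours (13 and 11, 14 and 13). Dye batch 2 holds fewer samples. With 1 wild-type liver, differences from it rest on a spread taken from the tumours.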
